A study of Danio rerio with 9 samples.

Results

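Of the 2581 circular RNAs (circRNAs) in the deposited table, 54 had at least 1 read in each of the 9 zebrafish brain libraries, and these core brain circRNAs are described here. They were chosen from the measured values themselves, as the rows above 0 in all 9 libraries, so their presence in every library is a description and not a finding. The libraries fall into 3 groups of 3: brain of fish with no toxication (control), brain of fish labelled CYP toxication, and brain of fish labelled CPF toxication. CYP stands for cypermethrin, a pyrethroid that keeps neuronal sodium channels open, and CPF for chlorpyrifos, an organophosphate that blocks breakdown of the transmitter acetylcholine once it is activated in the body. The sources used here do not give the dose, exposure time, strain or age, or how many fish make up a library. No label ties the libraries of 1 group to different fish, so each p-value reflects library-to-library spread alone, and that spread may be technical.

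CircRNAs are closed RNA rings that form when the spliceosome joins the end of an exon back to the start of the same or an earlier exon. Having no free ends, they resist the exonucleases that degrade linear RNA, and in animals they are most varied in nervous tissue, where they build up in ageing neurons. Some bind microRNAs or proteins, but most have no known function. The files name each circRNA by a number only, so the host gene, position and sequence of the core members are not given here, and brain identity could not be checked with marker genes. Values are reads of a circRNA per 1000000 reads of its library (RPM). They are not scaled for length.

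The 54 core circRNAs were 2.09% of the listed circRNAs and held 4656 reads, 20.7% of all circRNA reads. The 1005 circRNAs found in a single library were 38.9% of the list and held 8.71% of the reads. Reads per core circRNA, pooled over the 9 libraries, ran from 19 to 526 with a median of 67.5. Of the 10 circRNAs with the highest mean RPM (the mean of the 3 group means), 9 were core members, and of the top 50, 34 were. The part in the core rose with pooled reads. Of the 244 circRNAs with at least 19 pooled reads, the number of the least-read member, 54 (22.1%) were in the core. It was 34 of the 53 with at least 50 pooled reads (64.2%) and 12 of the 15 with at least 100 (80%).

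**Figure D1:**
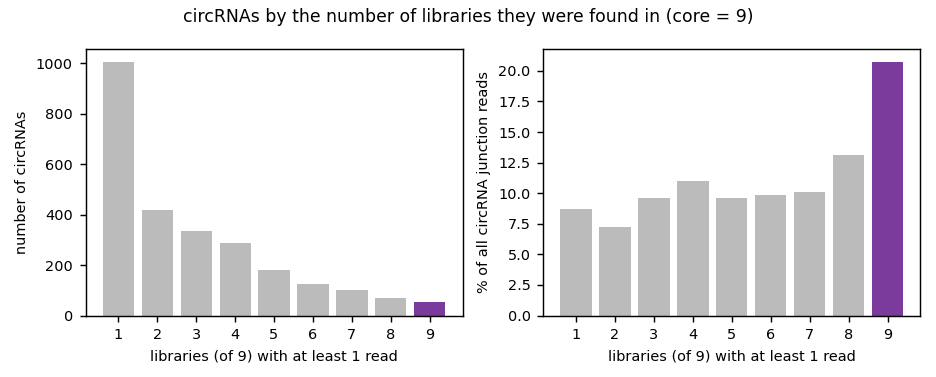
The x axes give the number of libraries, of 9, in which a circRNA had at least 1 read, and the bars show the number of circRNAs (left) and their percentage of all circRNA reads (right). The purple bars are the 54 core circRNAs, the smallest class by number and the largest by reads (20.7%).

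Many members sit close to the edge of the rule. Among the members, 31 had a single read in at least 1 library, 23 had at least 2 reads in every library, and 3 had at least 10 reads in every library: dre_circ_2902, dre_circ_33 and dre_circ_517. Just inside the edge, dre_circ_1972 was read 2, 3 and 2 times in control, once in each CYP library, and 1, 7 and 1 times in CPF. Just outside lay 70 circRNAs found in 8 libraries, with 12 to 246 pooled reads. The most abundant was dre_circ_713, at rank 3 in mean RPM over the whole list, with 0, 12 and 10 reads in control, 22, 17 and 2 in CYP and 38, 81 and 64 in CPF. dre_circ_1450 had 0, 9 and 8 reads in control, 6, 11 and 1 in CYP and 32, 49 and 15 in CPF. Both were missing from control 1 alone. Control 1 was the missing library for 28 of the 70 (40.0%), CYP 1 for 13, CYP 3 for 11 and CPF 3 for 0. Without control 1 the same rule would have chosen 82 circRNAs.

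Library totals ran from 68.7 to 94.7 in units of 1000000 reads. Circular reads numbered 1735 to 2238 per library in control, 1299 to 2228 in CYP and 3045 to 4614 in CPF, so a core circRNA was counted on more reads in CPF. A read was worth 0.0106 to 0.0145 RPM. Control 1 stood apart with 470 circRNAs detected, against 619 to 1246 in the other libraries. Intervals below are 95% Wilson intervals, each computed from the reads of 1 library, so they cover counting error only and leave out library-to-library spread. They also take reads as independent, which reads copied by PCR are not.

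Summed over the 54 members, the core was higher in CPF than in the other groups on the RPM scale, while its share of circRNA reads was lower in CPF than in control. The summed level was 5.28, 5.30 and 5.49 RPM in the control libraries, 4.38, 5.07 and 3.5 in CYP and 8.55, 11.5 and 9.15 in CPF. All CPF libraries were above those of the other groups, and every CYP library lay below every control library. The CPF mean was 1.82-fold the control mean (log2 ratio 0.86, SE 0.14), and the log2 ratio was -0.31 (SE 0.15) for CYP against control and -1.17 (SE 0.20) for CYP against CPF. All other circRNAs together gave 1.05 (SE 0.15), 0.05 (SE 0.17) and -1.0 (SE 0.21) in the same order. In whole brain tissue, fewer cells of a type and less RNA per cell cannot be told apart. These sums carry no test, since the members were chosen on the same values.

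The core took 22.3%, 21.4% and 25% of the circRNA reads of the control libraries, 17.2%, 19.8% and 19.2% of those of CYP and 20.7%, 20.6% and 20.7% of those of CPF. The mean share was 22.9% ± 1.86 for control, 18.8% ± 1.39 for CYP and 20.6% ± 0.0411 for CPF (SD, n = 3 each). The groups did not overlap on this share, with control highest and CYP lowest. Counting error was wide beside these gaps for the libraries next to them, the lowest of control and CPF and the highest of CYP. The interval was 19.6% to 23.4% for control 2, 18.1% to 21.8% for CYP 2 and 19.4% to 21.8% for CPF 2. Other libraries lay further apart. The interval of control 3, 23.0% to 27.1%, was above that of every CYP and CPF library. That of CYP 1, 15.7% to 18.8%, was below that of every control and CPF library. The difference of CPF from control was -2.30 percentage points (SE 1.07). It was -0.11 (SE 1.43) over the 23 members with at least 2 reads in every library, which held 14.0% of control circRNA reads on average. For CYP against control it was -4.18 points (SE 1.34), and -1.74 (SE 1.57) over those 23. The difference of CYP from CPF, -1.88 points (SE 0.80), was -0.54 (SE 0.51) without dre_circ_2902. Because a member needs a read in the shallowest libraries too, depth and membership are tied. Control 1, the library most often missing alone (28 circRNAs), had the largest library total and 2238 circRNA reads, more than any other control or CYP library. It had the fewest circRNAs detected, 470. The part of depth in these shares was not tested, nor separately that of the circRNAs missing from control 1 alone.

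**Figure D2:**
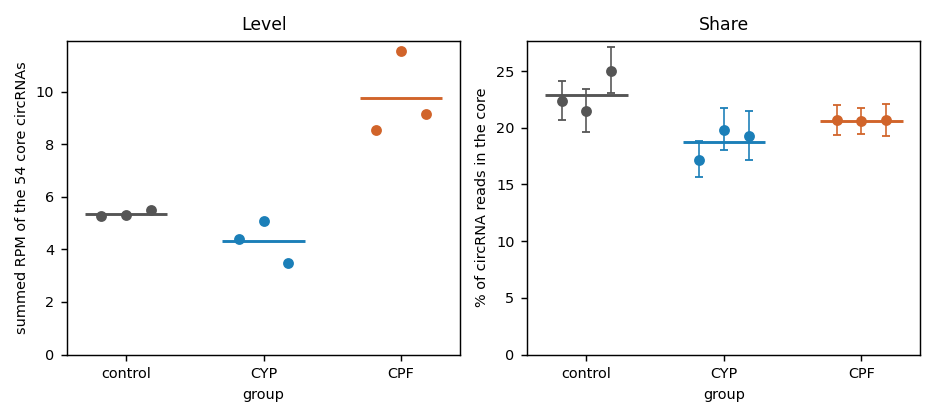
Points are the 9 libraries and horizontal lines the group means of the summed RPM of the 54 core circRNAs (left) and of their percentage of circRNA reads (right, with 95% Wilson intervals as bars). Summed RPM is 8.55 to 11.5 in CPF against 3.5 to 5.49 in the other groups, while the share stays between 17.2% and 25% in all libraries.

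Mean RPM over the 54 ran from 0.0265 for dre_circ_1972 to 0.732 for dre_circ_2902, with a median of 0.0914. The 10 most abundant members took 45.4% ± 5.22 of the summed core RPM in control, 44.8% ± 5.25 in CYP and 46.1% ± 1.84 in CPF (SD, n = 3). Spearman's rho between group means over the 54 was 0.562 for control and CYP, 0.649 for control and CPF and 0.697 for CYP and CPF. Between single libraries of a group it ran from 0.162 to 0.734 (median 0.510), and between single libraries of different groups from 0.107 to 0.693 (median 0.458). These values describe the 54 circRNAs, which are no replicates and were counted in the same libraries.

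The leader was dre_circ_2902, the most abundant circRNA of the whole list in 8 of the 9 libraries. Its level was 0.454, 0.475 and 0.733 RPM in control, 0.206, 0.446 and 0.322 in CYP and 1.14, 1.61 and 1.19 in CPF. There was no overlap between groups, with CPF highest and CYP lowest. Control 1 and CYP 2, at 0.454 and 0.446 RPM, were apart by less than the value of 1 read. The CPF values are those whose decimal point was missing from the deposited cells and was placed after the first digit. As a share of circRNA reads it held 1.92%, 1.92% and 3.34% in control, 0.808%, 1.74% and 1.77% in CYP and 2.76%, 2.88% and 2.69% in CPF. Control and CPF overlapped on this scale. In CYP 1 it was at rank 6 of all circRNAs, and dre_circ_33 led that library with 50 reads (2.24% of its circRNA reads).

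dre_circ_33, at rank 2 in the core, had 0.180, 0.280 and 0.253 RPM in control, 0.572, 0.388 and 0.140 in CYP and 0.330, 0.898 and 0.553 in CPF. Every CPF library exceeded every control library, and the CYP libraries spanned both. dre_circ_517, at rank 3, had 0.127, 0.308 and 0.341 RPM in control, 0.183, 0.388 and 0.140 in CYP and 0.374, 0.704 and 0.364 in CPF. Its mean share was 1.11% ± 0.523 in control, 1.0% ± 0.447 in CYP and 0.994% ± 0.232 in CPF (SD, n = 3), so that the group means differed by less than the SD within each group.

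dre_circ_3268, at rank 4, had 0.422, 0.280 and 0.303 RPM in control, 0.0915, 0.101 and 0.182 in CYP and 0.385, 0.316 and 0.349 in CPF. CYP lay below both other groups with no overlap, and the means of control and CPF were 0.335 ± 0.0765 and 0.350 ± 0.0345 RPM (SD, n = 3). dre_circ_408, at rank 5, showed another order, with 0.0528, 0.266 and 0.0758 RPM in control, 0.320, 0.331 and 0.238 in CYP and 0.330, 0.376 and 0.233 in CPF. Its share of circRNA reads was nearly constant in CYP, at 1.26%, 1.29% and 1.31%, above every control and every CPF library on that scale.

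Next in level, dre_circ_2369 averaged 0.203 ± 0.0910 RPM in control, 0.145 ± 0.0768 in CYP and 0.352 ± 0.197 in CPF (SD, n = 3). dre_circ_2518 ran from 0.0211 RPM in control 1 to 0.303 in control 3, a wider range than between its group means of 0.183, 0.165 and 0.246 in control, CYP and CPF. dre_circ_3196 was also split within control, with 39 reads in control 1, 8 in control 2 and 2 in control 3. dre_circ_3035 had 31 and 21 reads in CPF 1 and CPF 3 but 5 in CPF 2. dre_circ_243, at rank 10, is described with the comparison of CYP and control. At the other end, dre_circ_2555, dre_circ_1209 and dre_circ_1972 had 1 to 7 reads per library, so that 1 or 2 reads decide the order of their libraries.

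**Figure D3:**
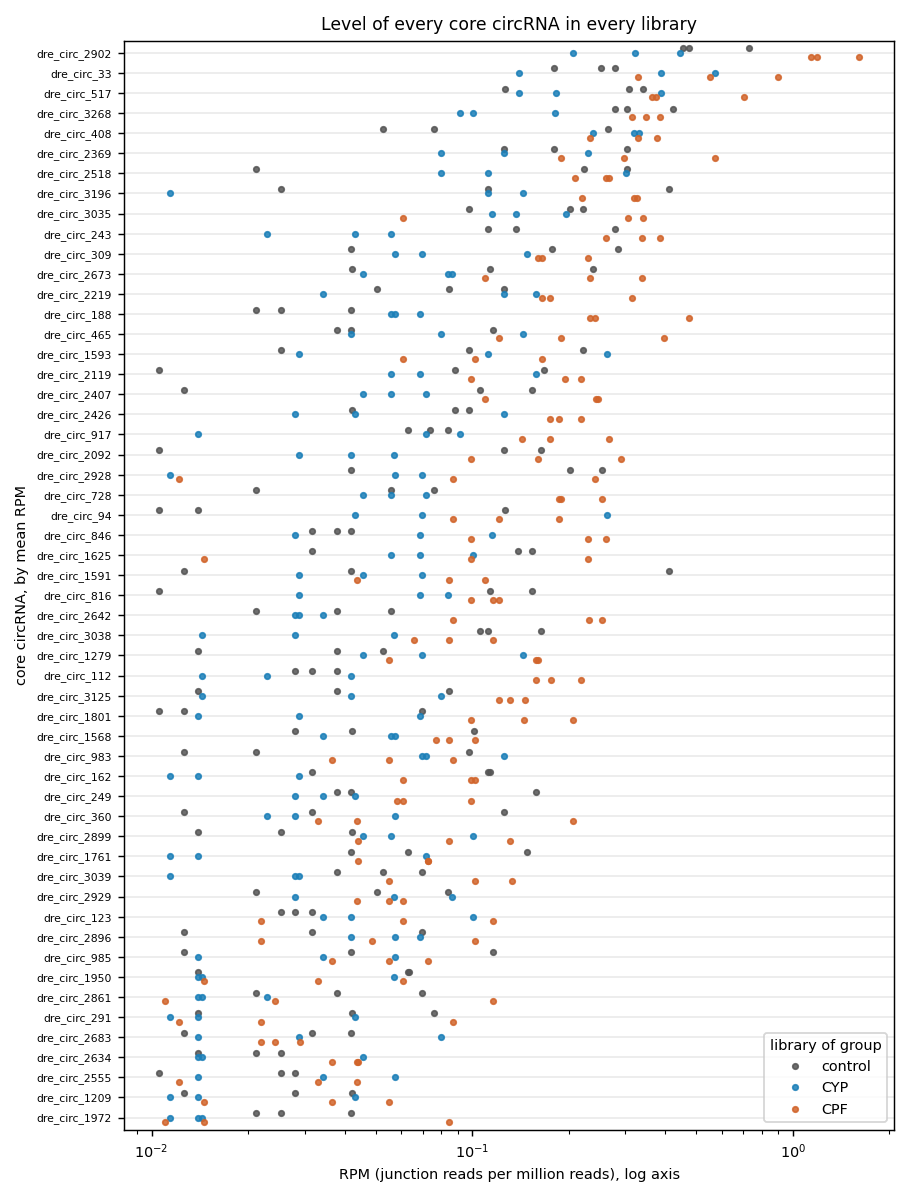
Each row is a core circRNA, ordered by mean RPM, and each point is its RPM (log axis) in 1 of the 9 libraries, coloured by group. dre_circ_2902 heads the list with CPF at 1.14 to 1.61 and the other groups at 0.206 to 0.733.

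Being present everywhere did not mean being steady. The coefficient of variation of the share over the 9 libraries ran from 34.0% for dre_circ_917 to 151% for dre_circ_1591, with a median of 61.0%. Besides dre_circ_917, the lowest were dre_circ_2902 (35.2%), dre_circ_517 (35.5%), dre_circ_33 (38.9%) and dre_circ_2426 (39.1%), all among the 20 most abundant members, where counting error is smallest. dre_circ_917 held 0.313%, 0.340% and 0.288% of circRNA reads in control, 0.359%, 0.281% and 0.0770% in CYP and 0.345%, 0.477% and 0.394% in CPF, with CYP 3 (1 read) the low library.

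The 5 most variable members also varied within groups. dre_circ_1591 had 39, 3 and 1 reads in control, 4, 2 and 5 in CYP and 10, 7 and 3 in CPF, so that control 1 alone held 1.74% of its circRNA reads in it. dre_circ_2928 had 24, 3 and 16 reads in control, 1, 4 and 5 in CYP and 22, 1 and 6 in CPF. dre_circ_94 had 23 reads in CYP 1 against 3 and 5 in the other CYP libraries, and 1, 1 and 10 in control. dre_circ_1761 had 14 of its 44 reads in control 1, and dre_circ_291 had 1 to 6 reads per library.

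The spread between libraries of a group was compared with counting error. A chi-square statistic of the reads against equal RPM within each group, divided by its 6 degrees of freedom, should lie near 1 for counting error alone. It was above 1 for 44 of the 54 and above 2 for 25, with a median of 1.93. It was highest for dre_circ_1591 (8.80), dre_circ_3196 (7.92) and dre_circ_33 (7.54) and lowest for dre_circ_112 (0.33). The last held 3, 2 and 3 reads in control, 2, 1 and 3 in CYP and 16, 13 and 15 in CPF.

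**Figure D4:**
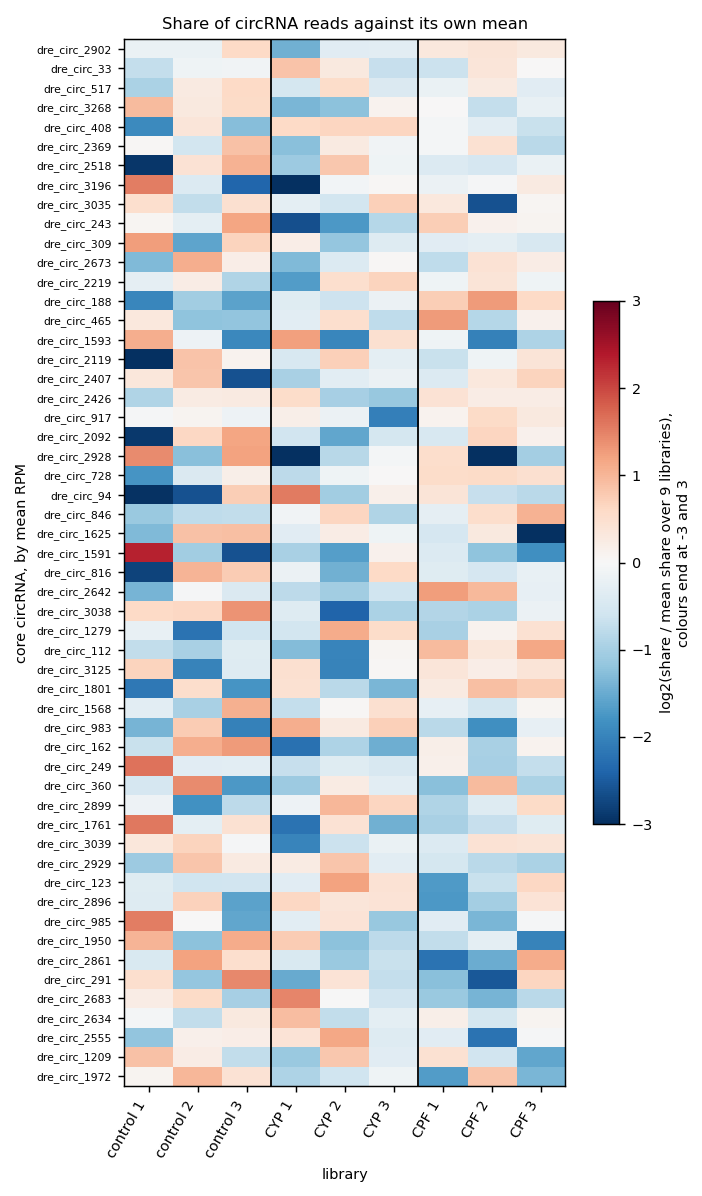
Rows are the 54 core circRNAs by mean RPM and columns the 9 libraries; colour gives log2 of the share of circRNA reads over the member's own mean share, red above and blue below. The darkest red cell is dre_circ_1591 in control 1 (1.74% of circRNA reads), and dre_circ_188 goes from blue in control to red in CPF.

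The comparison of CPF with control asks which core circRNAs differ after chlorpyrifos. On the RPM scale 45 of the 54 had a higher fitted value in CPF, 83.3%, beside 77.5% of the 1158 circRNAs tested (above 0 in at least 3 libraries). The sets differ by rule, since a member needed a read in all 9 libraries and a tested circRNA in any 3. Within the compared groups alone, 889 circRNAs passed that filter for CPF with control. It was 906 for CYP with CPF and 522 for CYP with control. The part of these rules in any gap between the core and all tested, here and in the comparisons below, was not tested. The median log2 fold change was 0.72 over the core and 0.63 over all tested. For 17 members every CPF library exceeded every control library (31.5%, beside 18.5% of all tested), and for 0 the reverse held (beside 0.95%). Of the 17, dre_circ_517, dre_circ_465, dre_circ_1279 and dre_circ_2899 had a control library with at least as many reads as the lowest CPF library. Their separation rests on the totals used as divisors. Such cases were not counted over all tested. At an unadjusted p under 0.05, 11 were higher and 0 lower, beside 16.8% and 0.864% of all tested. By limma 1 member passed a Benjamini-Hochberg (BH) adjusted p of 0.05, dre_circ_188, beside 0.432% of all circRNAs tested. On shares of circRNA reads the picture was divided: 24 members were higher (44.4%, beside 63% of all tested) and 30 lower in CPF, with a median log2 fold change of -0.09 beside 0.23 over all tested. On that scale 5 members had no overlap upward and 3 downward, beside 11.7% and 2.76% of all tested, or 14.4% in either direction. The move from RPM to shares shifted the median of all tested circRNAs from 0.63 to 0.23.

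dre_circ_188 rose in CPF. It had 2, 3 and 2 reads in control, 6, 4 and 4 in CYP and 22, 39 and 16 in CPF. In RPM these were 0.0211, 0.0419 and 0.0253, then 0.0686, 0.0575 and 0.0560, then 0.242, 0.473 and 0.233. The 3 groups were fully separated, in the order control, CYP, CPF, on RPM and on shares. The CPF mean was 10.7 times the control mean in RPM and 5.22 times in share. The log2 fold change of CPF against control was 2.92 (SE 0.73; by limma, adjusted p = 0.024, with 3 of 3 CPF libraries above all controls), and 2.04 (SE 0.75; by limma, adjusted p = 0.336) on shares, so the call was lost there. Over all alternatives on RPM the adjusted p ran from 0.0070 to 0.546, and the call was also lost without control 3, CPF 1, CPF 2 or CPF 3 (log2 fold changes 2.86, 3.07, 2.60 and 3.09).

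Below it, members that did not pass the adjusted threshold had the same kind of separation. dre_circ_112 averaged 0.0325 ± 0.00503 RPM in control and 0.184 ± 0.0310 in CPF (SD, n = 3), a log2 fold change of 2.12 (SE 0.77; by limma, adjusted p = 0.155). dre_circ_1801 had 1, 5 and 1 reads in control and 9, 17 and 10 in CPF, a log2 fold change of 2.11 (SE 0.78; by limma, adjusted p = 0.155). dre_circ_846 had 3, 3 and 3 reads in control and 9, 19 and 18 in CPF. dre_circ_728 had 2, 4 and 6 reads in control and 17, 21 and 13 in CPF, and dre_circ_2642 had 2, 4 and 3 against 21, 21 and 6. Of these, dre_circ_112, dre_circ_846 and dre_circ_728, with dre_circ_188 and dre_circ_917, were the 5 members whose CPF libraries lay above every control library on shares as well.

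For 3 members, dre_circ_3268, dre_circ_3038 and dre_circ_1761, every CPF library held a smaller share than every control library. dre_circ_3268 held 1.79%, 1.13% and 1.38% of circRNA reads in control and 0.930%, 0.564% and 0.788% in CPF, at the RPM given above. dre_circ_3038 held 0.447%, 0.453% and 0.749% in control and 0.159%, 0.152% and 0.263% in CPF (log2 fold change on shares -1.33, SE 0.77; by limma, adjusted p = 0.665). dre_circ_2928 had a log2 fold change of -1.51 on shares (SE 0.76; by limma, adjusted p = 0.665), but CPF 1 and CPF 3 lay within the control range. It was -2.28 without CPF 1, -2.26 without control 2 and -0.66 without CPF 2. On shares, limma called 0 members, beside 0% of all tested. Before adjustment 1 passed upward and 1 downward, beside 5.35% and 1.3%. edgeR on recovered reads with circRNA totals also called 0, with 1 higher and 1 lower before adjustment, beside 1.81% and 2.07% of all tested in that fit.

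**Figure D5:**
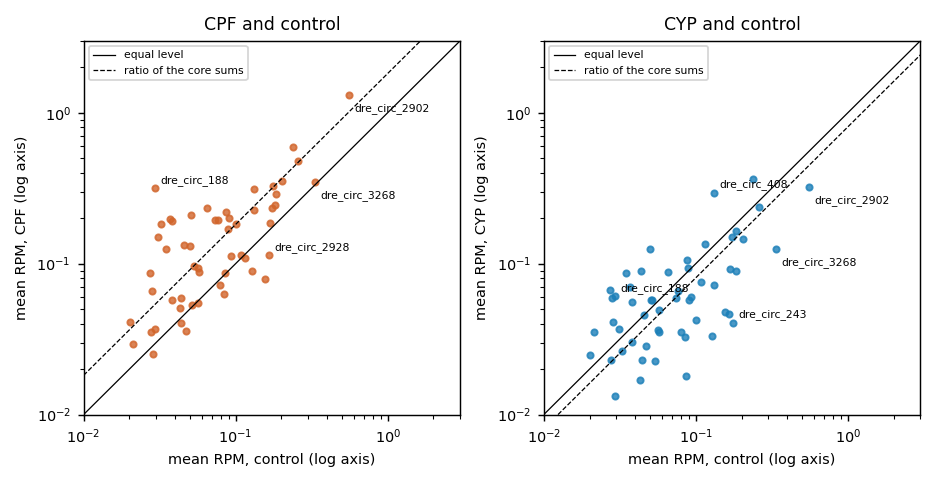
Each point is a core circRNA, with its mean RPM in control on the x axis and in CPF (left) or CYP (right) on the y axis, both log axes; the solid line marks equal levels and the dashed line the ratio of the summed core. dre_circ_188 lies above both lines in CPF (0.316 against 0.0294 RPM), dre_circ_3268 lies on the line of equal levels in CPF and below it in CYP, and dre_circ_243 and dre_circ_2902 are among those below it in CYP.

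The comparison of CYP with control asks which core circRNAs differ after cypermethrin. It shares its control libraries with the comparison above. Of the 54 members, 22 had a higher fitted value in CYP (40.7%, beside 54.1% of all tested), with a median log2 fold change of -0.19 beside 0.03 over all tested. CYP and control did not overlap for 7 members lower in CYP, beside 3.2% of all tested, and for 3 members higher in CYP, beside 3.63% (6.82% in either direction). With 1 library left out the total of 10 became 12 to 18, beside 10.4% to 14.2% of the same 1158 circRNAs. It was highest, at 18, without control 1 or without control 2 (beside 12.5% and 12.1%). Such a count can only stay or rise when a library is left out, so the rise itself is no result. By limma 0 members passed an adjusted p of 0.05, beside 0% of all tested, with 1 higher and 4 lower (beside 2.68% and 3.8%) when p was left unadjusted. edgeR on recovered reads with library totals called 0 (0 higher and 3 lower unadjusted, beside 3.63% and 4.15% of all tested in that fit). DESeq2 called 0 (2 higher and 3 lower, beside 2.33% and 1.12% in its fit). Its scaling is taken from the core members themselves, and its median log2 fold change was -0.01 over the core and 0.38 over all tested. The core counts and the percentages of that fit therefore cannot be set against each other. On shares, 22 members were higher in CYP (beside 51.3% of all tested), 4 were separate upward and 8 downward (beside 3.45% and 3.8%, or 7.25% in either direction). There limma called 0, with 1 higher and 5 lower when unadjusted, beside 4.58% and 4.75%.

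dre_circ_243 was the member with the smallest p. It had 13, 8 and 22 reads in control, 2, 3 and 4 in CYP and 35, 28 and 18 in CPF. CYP lay below both other groups on RPM and on shares, at 0.0406 ± 0.0167 RPM against 0.176 ± 0.0895 in control (SD, n = 3). The log2 fold change was -1.77 (SE 0.68; by limma, adjusted p = 0.711, with 3 of 3 CYP libraries below all controls).

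dre_circ_3268, whose levels are given above, had a log2 fold change of -1.38 (SE 0.60; by limma, adjusted p = 0.711). dre_circ_3038 had 10, 8 and 13 reads in control and 5, 1 and 2 in CYP (log2 fold change -1.70, SE 0.75; by limma, adjusted p = 0.711). dre_circ_162 had 3, 8 and 9 reads in control and 1, 2 and 1 in CYP. These members and dre_circ_2902, dre_circ_3039 and dre_circ_1972 were the 7 without overlap downward. For dre_circ_2902 the gap was less than the value of 1 read. At the edge dre_circ_3039 had 3 reads in control against 2 in CYP, and dre_circ_1972 had 2 against 1. Upward, dre_circ_188, dre_circ_2899 and dre_circ_123 had every CYP library above every control library. dre_circ_2899 had 4, 1 and 2 reads in control and 4, 7 and 4 in CYP, and dre_circ_123 had 3, 2 and 2 against 3, 7 and 3. For both, control 1 had as many reads as the lowest CYP library, so their separation rests on the totals used as divisors. dre_circ_408 overlapped in RPM through control 2 and was separate on shares (log2 fold change on shares 1.44, SE 0.64; by limma, adjusted p = 0.495).

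The comparison of CYP with CPF sets the insecticides side by side and uses the same CYP and CPF libraries again. Of the 54 members, 49 had a lower fitted value in CYP (90.7%, beside 78.6% of all tested), with a median log2 fold change of -0.83 beside -0.60 over all tested. Libraries did not overlap for 23 members, all lower in CYP (42.6%, beside 17.4% of all tested), and 0 were separate upward (beside 0.95%). Among the 23, the separation of dre_circ_309 rests on the totals used as divisors, with 13 reads in CYP 1 and 11 in CPF 3. Tested circRNAs found in 3 libraries had a median of 6 pooled reads, against 67.5 in the core. The part of read number in the counts without overlap was not tested in any comparison. By limma 1 member passed, dre_circ_2902, beside 0.0864% of all tested, and 16 were lower and 0 higher before adjustment (beside 14.8% and 0.345%). On shares 26 were higher (beside 39.9% of all tested) and 28 lower, and limma called 0, with 0 higher and 2 lower before adjustment, beside 0.95% and 4.92%. edgeR with circRNA totals called 0 there, with 0 higher and 1 lower before adjustment, beside 1.3% of all tested in each direction in that fit. On shares 4 members were separate upward in CYP, dre_circ_408, dre_circ_983, dre_circ_2929 and dre_circ_2683 (beside 2.68% of all tested), and 7 downward (beside 10.1%).

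dre_circ_2902 fell in CYP against CPF, from a mean of 1.32 ± 0.259 RPM in CPF to 0.324 ± 0.120 in CYP (SD, n = 3). The fitted log2 fold change of CYP against CPF was -2.03 (SE 0.47; by limma, adjusted p = 0.036, with 3 of 3 CYP libraries below all CPF libraries). The call rests on the restored CPF cells. On shares it was -1.01 (SE 0.51; by limma, adjusted p = 0.790), and over the alternatives on RPM the adjusted p ran from 0.0026 to 0.990. The call was lost without control 3, without CYP 1 or CYP 3, and without any 1 of the CPF libraries, with log2 fold changes of -1.75 to -2.12.

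dre_circ_243 came next, with the reads given above and a level 8.09 times as high in CPF as in CYP (log2 fold change -2.71, SE 0.68; by limma, adjusted p = 0.066). It passed without control 1 or without control 2 (by limma, adjusted p = 0.0030 and 0.042). It also passed with the pseudocount at 0.0506 RPM, with a filter of 6 libraries and with the compared groups alone. dre_circ_112 had 2, 1 and 3 reads in CYP and 16, 13 and 15 in CPF (log2 fold change -2.38, SE 0.77; by limma, adjusted p = 0.187). dre_circ_2642 had 3, 2 and 2 reads in CYP and 21, 21 and 6 in CPF (log2 fold change -2.12, SE 0.76; by limma, adjusted p = 0.187). These 3 and dre_circ_2902, dre_circ_188, dre_circ_728 and dre_circ_2092 were lower in CYP without overlap on shares as well.

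By group means, 41 members were highest in CPF on the RPM scale, 8 in control and 5 in CYP. On shares control was the highest group for 27 members, CYP for 15 and CPF for 12. These counts were not made over all circRNAs, so they cannot be read as particular to the core. All other circRNAs together had a summed RPM 2.07 times as high in CPF as in control. Of the difference in summed core RPM between CPF and control, 4.39 RPM, dre_circ_2902 held 17.4%, dre_circ_33 held 8.12% and dre_circ_188 held 6.53%, and 44 members had a higher mean in CPF.

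Core circRNAs were among those listed by the authors, whose lists were chosen on these same libraries. No listed core member had an adjusted p under 0.05 in the authors' deposited table, where the lowest was 0.146. For CPF against control the authors' deposited table lists 60 circRNAs, 9 of them core members, all higher in CPF: 15% of the list and 16.7% of the core, beside 2.32% of all 2581 circRNAs. For CYP against control the authors' deposited table lists 16, with 4 core members, all lower in CYP: 25% of the list and 7.41% of the core, beside 0.62%. These were dre_circ_243, dre_circ_3038, dre_circ_2928 and dre_circ_3268. For CYP against CPF the authors' deposited table lists 62, with 19 core members, all lower in CYP: 30.6% of the list and 35.2% of the core, beside 2.4%. The 2581 include 1005 circRNAs found in a single library, with a median of 2 pooled reads, against 67.5 in the core. The part of read number in these percentages was not tested. The authors' deposited table gives dre_circ_188 a log2 fold change of 3.0 for CPF against control and an adjusted p of 0.461. For dre_circ_2902 in CYP against CPF the authors' deposited table gives -2.10 and an adjusted p of 0.146.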

How the data were processed

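Brain circRNAs were counted in 9 libraries, 3 per group. The deposited values, labelled both TPM and fpm, are taken as RPM in the control and CYP columns. Their label also reads filter, and its rule was not given in the sources used here. All circRNA reads therefore means the reads of the listed circRNAs. CPF columns carry that quantity as a deposited signal in which 3 cells (dre_circ_2902) lack the decimal point, here put back after the first digit. Divided by the lowest positive value in its column, each value came out whole (100% at a tolerance of 1e-06), which gave the reads, taken as reads across a back-splice junction, and the library totals. The authors' deposited lists hold a score per group, a log2 fold change and p-values, with decimal points lost; restored log2 values matched pooled reads plus 3. The aligner and circRNA caller were not given in the sources used here; the submitters' processing notes name DESeq2 and UMD3.1, with no role.

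limma 3.58.1 (R 4.3.3; trend, empirical Bayes, all 9 libraries) was fitted to log2(RPM + 0.0126), and to log2(share in percent + 0.0449) of the circRNA reads of a library, over the 1158 circRNAs above 0 in at least 3 libraries. Fold changes are on these scales, which understate changes of low circRNAs. p-values were adjusted by Benjamini-Hochberg over all of them. edgeR 4.0.16 and DESeq2 1.42.0 on recovered reads were alternatives; over all circRNAs tested, edgeR with library totals called 1 for CPF against control. The fits were run on simulated reads with changes planted in chosen circRNAs. No general rise of circRNA reads in a group was simulated, so that run does not bear on such a rise. A chi-square per degree of freedom of 1.44 to 2.65 for pairs within groups showed no library deposited again. No unused sample columns remained (0).

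Members, lists and tests were chosen with earlier results of these data known. Named circRNAs are the 10 highest and 3 lowest in RPM, the 5 steadiest and 5 most variable in share, those called, the 3 with the smallest p per comparison and scale, those without overlap on both scales and those on the authors' lists (at most 5 per comparison). Others completing a count of separate members were named after their values were seen.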

Additional observations from a re-analysis of the deposited data

How the results depend on the processing

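Both single calls depended on the settings. For CPF against control the count of 1 core circRNA became 0 with the pseudocount at 0.00316 RPM, with no filter, with the compared groups alone, with quantile normalization, with edgeR on library totals, with edgeR and TMM, and with DESeq2. The log2 fold change of dre_circ_188, 2.92 by limma, was 3.26, 2.92, 2.92, 2.09, 3.38, 3.04 and 2.60 in these settings, in the same order. For CYP against CPF the count of 1 became 2, with dre_circ_243 added, with the pseudocount at 0.0506 RPM, a filter of 6 libraries and the compared groups alone. It became 0 with quantile normalization, with both edgeR fits and with DESeq2. Leaving out 1 library gave counts of 0 to 1 for CPF against control and 0 to 2 for CYP against CPF. Counts of calls for CYP against control, and for all comparisons on shares, were 0 in every alternative, edgeR with circRNA totals (added after the data were seen) included. DESeq2 takes its size factors from circRNAs above 0 in every library, which are the 54 core circRNAs themselves, so its scaling centres the core by construction: the median log2 fold change of the core for CPF against control was -0.08 there, against 0.72 by limma, and 0.07 against -0.83 for CYP against CPF. For dre_circ_2928 in CPF against control the log2 fold change in RPM, -0.77, turned to 0.13 without CPF 2 and was -1.55 without CPF 1. Apart from the DESeq2 scaling, the causes were not tested.

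Log2 ratios of the summed core kept their direction in every alternative run, with ranges over left-out libraries of 0.72 to 0.95, -0.44 to -0.18 and -1.31 to -1.04 for CPF against control, CYP against control and CYP against CPF. Share differences kept their sign, with ranges over left-out libraries of -3.04 to -1.26, -4.92 to -3.14 and -2.42 to -1.09 points. For CPF against control, -0.11 (SE 1.43) and -1.46 (SE 1.73) in the changed sets that follow were smaller than their SE, so their sign is not settled. Share differences moved to -0.11 (CPF against control) and -1.74 (CYP against control) with at least 2 reads in every library. With 8 of 9 libraries they were -1.46 and -3.31 (CPF against control and CYP against CPF). Without dre_circ_2902 it was -0.54 (CYP against CPF). Without the 10 most abundant members they were -1.35, -2.15 and -0.80 (CPF against control, CYP against control and CYP against CPF), an alternative added after the data were seen. These 44 members hold fewer reads: relative to the mean share of the second group, their differences were -10.8%, -17.3% and -7.22%, against -10.02%, -18.2% and -9.10% for all 54. On shares 8 members in place of 17 were separate for CPF against control and 11 in place of 23 for CYP against CPF. Over left-out libraries the RPM counts of 17, 10 and 23 (CPF against control, CYP against control, CYP against CPF) were 20 to 24, 12 to 18 and 23 to 33, beside 25% to 32.5%, 10.4% to 14.2% and 22.7% to 31% of the 1158 circRNAs. Counts without overlap can only stay or rise when a library is left out, so these ranges cannot show whether the counts are steady. The core itself held 23 circRNAs at 2 reads, 11 at 3 reads, 124 with 8 of 9 libraries, and 54 to 82 without 1 library.

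Same-numbered libraries of different groups showed no clear common deviation, with correlations of -0.06 to 0.11, beside -0.11 to 0.07 for differently numbered ones. With so few reads per circRNA, these values cannot settle whether the numbers pair the libraries. With the replicate number as a block, the counts of calls were unchanged at 1, 0 and 1 on RPM and 0 on shares. Depth limits the rest: 1 read is 0.0106 RPM or more, and 31 members have a single read somewhere.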
